A study of Arabidopsis thaliana with 8 samples.

Results

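Heat-shock proteins are chaperones: they bind proteins that have lost their fold, keep them from clumping, and refold them, hold them or hand them on. The members here are 10 Arabidopsis genes out of 24279 that had a value in any library. The genes were taken by their identifiers, but earlier results of these data were known when they were chosen. They comprise 3 ATP-driven chaperones (HSP90.1, HSP70 and HSP101), 4 regulators (the heat-shock factors HSFA2 and HSFA7A, the coactivator MBF1C and the co-chaperone BAG6) and 3 small heat-shock proteins (HSP17.6A, HSP17.4 and HSP18.2). In plants, heat-shock factors bind heat-shock elements in front of these genes, short repeats of the letters GAA and TTC in alternating orientation, and heat raises transcription of most of them steeply. HSP90 and HSP70 also restrain the heat-shock factors when there is no stress, and several of the genes are known to respond to oxidative and other stresses besides heat.

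RNA had been sequenced from roots of Arabidopsis thaliana seedlings in 4 groups with n = 2 libraries each. They were cml24-2 with Al (10 µM AlCl3 for 6 h), cml24-2 without Al (0 µM), wild-type Col with Al, and wild-type Col without Al. All seedlings were 6 d old and were in nutrient solution at pH 5.0, and about 500 seedlings had been used. The line cml24-2 is a mutant of CML24, a calmodulin-like calcium sensor. The labels give neither the kind of allele nor the origin of the 2 libraries within a group, whether from separate cultures or from 1, and p-values therefore measure a spread between libraries that may be technical.

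Libraries held 11743433 to 12188917 expected counts, and 20262 genes passed the count filter. CML24 itself (TCH2 in RefSeq) was at 131 and 94.9 CPM (reads scaled to a library of 1000000) in cml24-2 with Al, 189 and 118 CPM in cml24-2 controls, 43.3 and 39.3 CPM in wild type with Al, and 43.5 and 102 CPM in wild-type controls, which does not check the genotype labels without knowledge of the allele. The 6 root markers (among them PYK10 and CASP1) were above 0 in all 8 libraries. Their summed level was 1410 and 1462 CPM in cml24-2 with Al, 2705 and 3445 CPM in cml24-2 controls, 1117 and 1382 CPM in wild type with Al, and 2883 and 4084 CPM in wild-type controls. The 13 shoot photosynthesis markers (such as RBCS1A and CAB1) were above 0 in every library except that 12 were above 0 in wild-type Al replicate 2. Their sum was 126 and 155 CPM in cml24-2 with Al, 200 and 303 CPM in cml24-2 controls, 61.0 and 19.5 CPM in wild type with Al, and 79.6 and 178 CPM in wild-type controls. Both marker sums were lower with Al, and the photosynthesis sum was higher in cml24-2, in the same libraries as the results that follow; their part in those results was not tested. The wild-type controls were the farthest apart of the 4 pairs, with a chi-square per degree of freedom of 14.7 between the pair, against 4.28 for cml24-2 with Al, 6.28 for cml24-2 controls and 3.55 for wild type with Al.

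The heat-shock element letters were read before each start codon to show which members carry there the sequence that heat-shock factors bind. In the 500 bases before the annotated start codon (TAIR10.1 genome of RefSeq, both strands), the 3-unit letters GAANNTTCNNGAA, where N is any base, stood in 6 of the 10 members, against 329 of 27443 such windows genome-wide (1.20%). The matches are shown with 8 bases on each side, 5′ to 3′ on the gene's strand, with the matched letters in capitals:
HSP90.1 (chr5:21352254-21352282, plus strand): aacgaaaaGAACTTTCTGGAAttcgtttg
HSP70 (chr3:3993846-3993874, minus strand): ttactcgtGAACGTTCTCGAAagctcttt
HSFA2 (chr2:11135528-11135556, plus strand): ttagtaacGAAGTTTCTGGAAcattgtct
HSFA7A (chr3:19264941-19264969, plus strand): ttacgaagTTCCAGAAGTTTCgactattc
HSFA7A (chr3:19264991-19265019, plus strand): aaaaccgtTTCCAGAAGTTTCtaatttct
HSP17.4 (chr3:16984946-16984974, minus strand): tcaacataGAAGCTTCTTGAAgccacctg
HSP17.4 (chr3:16984865-16984893, minus strand): agaaacctGAAATTTCAAGAAacttgcag
HSP18.2 (chr5:24062388-24062416, plus strand): caacaaacGAAACTTCCTGAAatgccaag
Both HSFA7A matches are in the opposite orientation, so that the letters read on the gene's strand begin with TTC.

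The first base of the match lay 295 bases before the start codon in HSP90.1, 177 in HSP70, 320 in HSFA2, 345 and 295 in HSFA7A, 233 and 152 in HSP17.4 and 236 in HSP18.2. The HSP70 and HSP18.2 matches lie 20 and 73 bases inside the annotated transcript, and the annotated HSP90.1 transcript begins at its start codon. In HSP101, MBF1C, BAG6 and HSP17.6A the 3-unit letters are not in this window. However, the annotated gene begins 507 bases before the start codon in HSP101, 488 in MBF1C and 453 in BAG6. The windows of these genes hold little or no sequence in front of the gene, so they cannot show whether the letters stand there. The shorter 2-unit letters GAANNTTC, which the longer ones contain, were found in 9 members against 21.0% of all windows, and TTCNNGAA, which they also contain, in 8 members against 17.5% of all windows. A match is a stretch of letters, not a measured binding site. Of the 6 members that carry the long letters in this window, 2 (HSP90.1 and HSP70) were called higher with Al in both genotypes in the measurements below. The other 4 (HSFA2, HSFA7A, HSP17.4 and HSP18.2) were not called, which does not show that they stayed level. Among them HSFA2, HSP17.4 and HSP18.2 had low counts and wide intervals. MBF1C and HSP101 in both genotypes and BAG6 in cml24-2 were called without the long letters in their windows. A link between the letters and the response of the members was not tested.

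**Figure D1:**
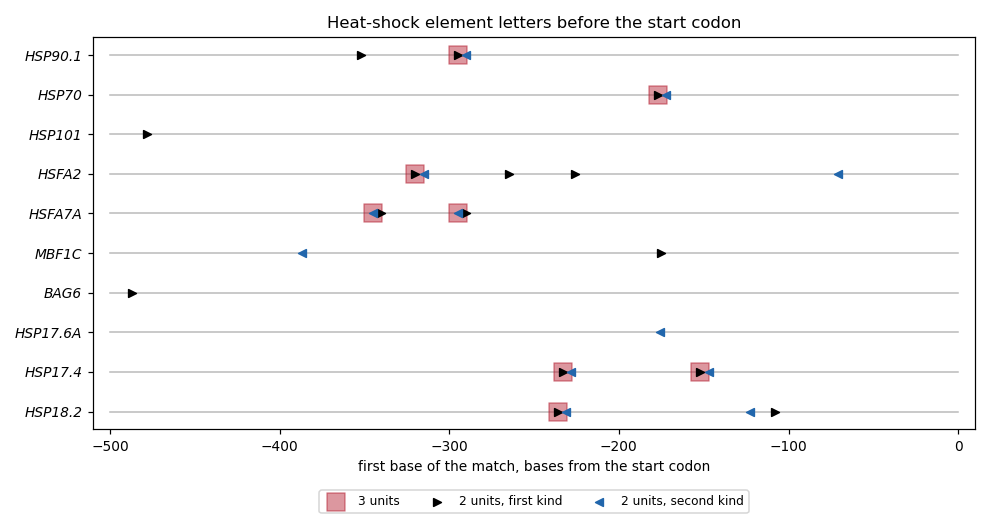
Position of heat-shock element letters in the 500 bases before the start codon (x axis, bases from the start codon) for the 10 genes (rows). Large squares mark the 3-unit letters, present in 6 genes, and small triangles the 2 kinds of 2-unit letters, which overlap the squares wherever a square stands.

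Expression at the steady level spanned a wide range. On the length-corrected scale of the deposited FPKM (fragments per kilobase of transcript, scaled to library size), the mean level over the 8 libraries was 84.8 for HSP70, 41.7 for MBF1C, 27.6 for HSP90.1 and 15.4 for HSFA7A. It was 7.10 for HSP101 and 6.42 for BAG6. The small heat-shock proteins and HSFA2 were at the low end, with a mean of 2.02 for HSP17.4, 1.30 for HSP18.2, 0.819 for HSFA2 and 0.491 for HSP17.6A. Neighbours in this order overlapped in their range over the 8 libraries at every step except from HSFA7A (8.90 to 21.1 FPKM) to HSP101 (5.82 to 8.46 FPKM) and from BAG6 (5.38 to 8.05 FPKM) to HSP17.4 (0.590 to 3.81 FPKM). The small heat-shock proteins, which are abundant in heated plants, were represented here by 0 to 32 reads per library.

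**Figure D2:**
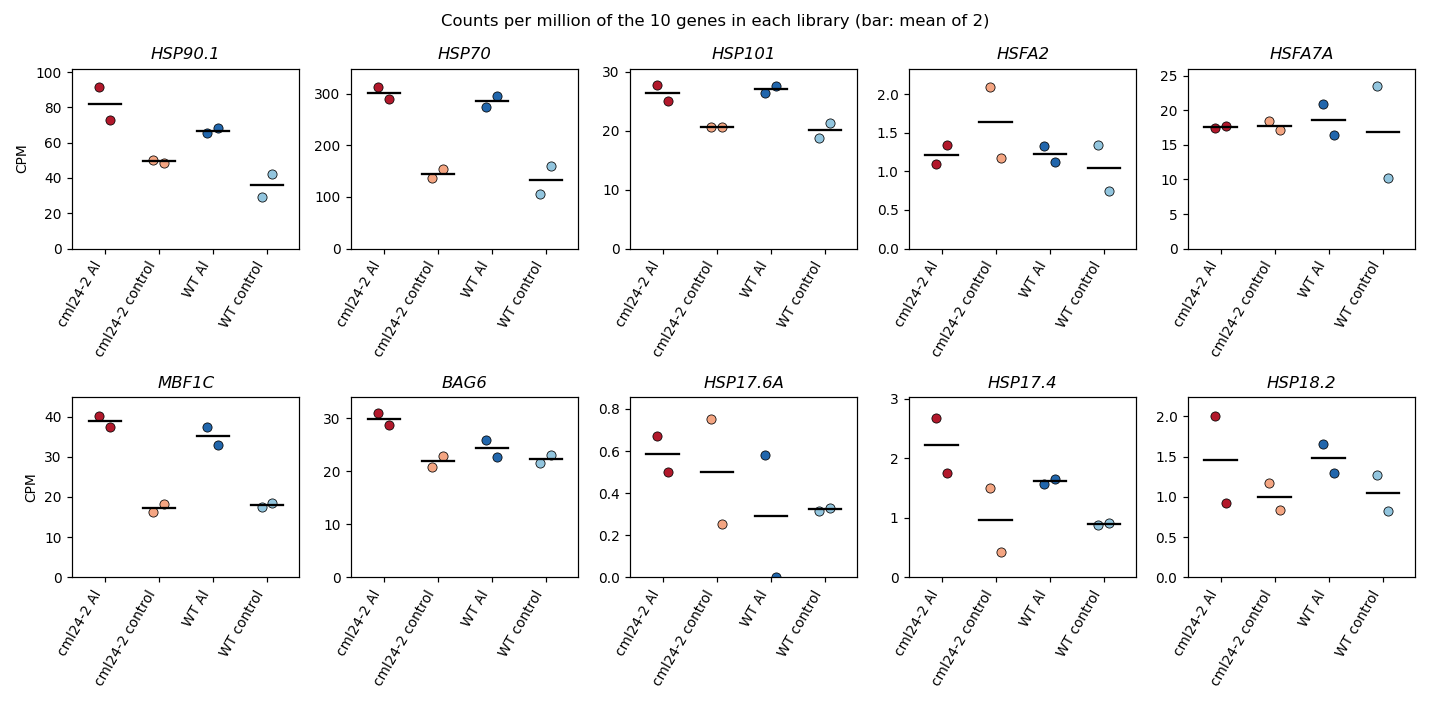
CPM (y axis, from 0, a scale of its own for each gene) of the 10 genes in cml24-2 with Al, cml24-2 control, wild type with Al and wild-type control (x axis). Each point is 1 library and the bar is the mean of 2. HSP90.1, HSP70, HSP101 and MBF1C are higher in every Al library than in any control of the same genotype. So is HSP17.4, at 5 to 32 reads per library, whereas HSFA2 and HSFA7A overlap between groups. The share of all genes without such overlap was not counted, here or for the overlaps named in the text. A lack of overlap between 2 and 2 libraries is therefore given as a description only.

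The ATP-driven chaperones and MBF1C rose with Al in both genotypes. With Al in cml24-2, 5 of the 9 tested members were called higher (edgeR quasi-likelihood test, Benjamini-Hochberg adjusted p under 0.05 over all genes) and 0 lower, where 21.3% of all tested genes were called higher and 23.3% lower. With Al in wild type, 4 of 9 were called higher and 0 lower, where 25.1% of all tested genes were called higher and 25.9% lower. The median log2 fold change of the tested members was 0.54 in cml24-2, where that of all tested genes was -0.0053, and 0.49 in wild type, where that of all tested genes was -0.0004. At an unadjusted p under 0.05, 0 members were lower in either genotype, and DESeq2 and limma called 0 lower. The changes that were called ranged between 0.36 and 1.17 on the log2 scale. The responses in the 2 genotypes come from separate libraries.

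HSP70 (AT3G12580, on chromosome 3), a heat-inducible cytosolic HSP70, was the most abundant member. It stood at 313 and 289 CPM in cml24-2 with Al, against 136 and 153 CPM in cml24-2 controls. In wild type it stood at 274 and 297 CPM with Al, against 106 and 161 CPM in controls. Every library with Al was above every library without it, in either genotype. Its log2 fold change was 1.06 (SE 0.17, 95% interval 0.66 to 1.45, adjusted p = 0.0012, edgeR) in cml24-2 and 1.10 (SE 0.17, 0.70 to 1.49, adjusted p = 7.3e-04) in wild type.

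HSP90.1 (AT5G52640, on chromosome 5) is the heat-inducible cytosolic member of the HSP90 family, which matures kinases, receptors and other client proteins. Its level was 91.3 and 72.7 CPM in cml24-2 with Al, against 50.5 and 48.4 CPM in cml24-2 controls. The wild-type libraries had 65.2 and 68.3 CPM with Al, against 29.5 and 42.4 CPM without. Again no library with Al overlapped a control. The change on the log2 scale was 0.73 (SE 0.17, 95% interval 0.36 to 1.10, adjusted p = 0.0063, edgeR) in cml24-2 and 0.89 (SE 0.17, 0.51 to 1.27, adjusted p = 0.0019) in wild type. The call in cml24-2 rested on its higher Al library, and without cml24-2 Al replicate 1 the log2 fold change was 0.56 with an adjusted p of 0.058 (edgeR).

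HSP101 (AT1G74310, on chromosome 1) is the ClpB-type disaggregase that pulls proteins out of aggregates and is needed for acquired thermotolerance. It had 27.8 and 25.1 CPM in cml24-2 with Al, against 20.6 and 20.7 CPM in cml24-2 controls, and 26.4 and 27.5 CPM in wild type with Al, against 18.7 and 21.4 CPM in wild-type controls. The groups did not overlap, but the step was the smallest of those called in either genotype. On the log2 scale the change was 0.36 (SE 0.11, 95% interval 0.10 to 0.61, adjusted p = 0.029, edgeR) in cml24-2 and 0.43 (SE 0.11, 0.17 to 0.68, adjusted p = 0.011) in wild type. Both calls ended with DESeq2 (adjusted p = 0.13 in cml24-2 and 0.067 in wild type), and they also ended without cml24-2 control replicate 1 (edgeR adjusted p = 0.10), cml24-2 control replicate 2 (0.096) or cml24-2 Al replicate 1 (0.16) in cml24-2 and without wild-type Al replicate 2 (0.066) or wild-type control replicate 1 (0.076) in wild type. HSP101 overlaps a gene on the opposite strand (AT1G74300), whose reads cannot be told apart from its own unless the counting used strand, which is not given in the sources used here.

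MBF1C (AT3G24500, on chromosome 3), a transcriptional coactivator that controls part of the heat response and basal thermotolerance, had the largest called response in cml24-2. It was at 40.2 and 37.4 CPM in cml24-2 with Al, against 16.2 and 18.2 CPM in cml24-2 controls, and at 37.5 and 33.0 CPM in wild type with Al, against 17.5 and 18.4 CPM in wild-type controls. The 4 control libraries lay between 16.2 and 18.4 CPM and all 4 Al libraries were well above them. With Al the log2 fold change was 1.17 (SE 0.12, 95% interval 0.91 to 1.43, adjusted p = 7.1e-05, edgeR) in cml24-2 and 0.97 (SE 0.12, 0.71 to 1.23, adjusted p = 1.3e-04) in wild type. Here too genes annotated on the opposite strand overlap the locus (AT3G24495, AT3G04685 and AT3G24503).

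BAG6 (AT2G46240, on chromosome 2) is a calmodulin-binding member of the BAG family, whose BAG domain docks on HSP70, and it is known for roles in stress-induced cell death and immunity. Its level was 30.9 and 28.8 CPM in cml24-2 with Al, against 20.9 and 22.9 CPM in cml24-2 controls. In wild type it was 25.9 and 22.8 CPM with Al, against 21.6 and 23.1 CPM in controls, and these 2 groups overlapped. Its log2 fold change was 0.45 (SE 0.11, 95% interval 0.19 to 0.70, adjusted p = 0.011, edgeR) in cml24-2 and 0.12 (SE 0.11, -0.14 to 0.38, adjusted p = 0.41) in wild type. That BAG6 was called in cml24-2 and not in wild type does not show a difference: the response in cml24-2 minus that in wild type was 0.33 (SE 0.16, -0.04 to 0.69, adjusted p = 0.45, edgeR). The call in cml24-2 also ended with DESeq2 (adjusted p = 0.050) and without cml24-2 Al replicate 1 (edgeR adjusted p = 0.072) or cml24-2 control replicate 1 (0.076).

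HSFA2 (AT2G26150, on chromosome 2) is the heat-shock factor that sustains the heat response and is itself among the most heat-inducible genes. It was barely expressed, at 1.09 and 1.34 CPM in cml24-2 with Al, against 2.09 and 1.18 CPM in cml24-2 controls, and at 1.33 and 1.13 CPM in wild type with Al, against 1.35 and 0.743 CPM in wild-type controls, from 9 to 25 reads per library. The groups overlapped in both genotypes. The change on the log2 scale was -0.43 (SE 0.41, 95% interval -1.35 to 0.50, adjusted p = 0.43, edgeR) in cml24-2 and 0.22 (SE 0.44, -0.77 to 1.21, adjusted p = 0.70) in wild type. At this depth a change of the size seen for HSP70 or MBF1C lies inside the interval in wild type and outside it in cml24-2.

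HSFA7A (AT3G51910, on chromosome 3), another heat-inducible class A heat-shock factor, was well expressed and showed no called change. It had 17.4 and 17.8 CPM in cml24-2 with Al, against 18.4 and 17.1 CPM in cml24-2 controls, and 20.9 and 16.4 CPM in wild type with Al, against 23.5 and 10.2 CPM in wild-type controls. The wild-type controls were the lowest and the highest of the 8 libraries, and they spread more than the groups differ. On the log2 scale the change was -0.01 (SE 0.30, 95% interval -0.70 to 0.68, adjusted p = 0.98, edgeR) in cml24-2 and 0.15 (SE 0.30, -0.54 to 0.83, adjusted p = 0.72) in wild type. Without wild-type control replicate 1 the wild-type value was 0.84 (adjusted p = 0.0033, edgeR), without wild-type control replicate 2 it was -0.33, and without wild-type Al replicate 1 it was -0.04, so the direction of HSFA7A in wild type depended on which library was left out.

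The small heat-shock proteins hold unfolding proteins without ATP until HSP70 and HSP101 take them over. HSP17.4 (AT3G46230, on chromosome 3), of cytosolic class I, had 2.68 and 1.76 CPM in cml24-2 with Al, against 1.51 and 0.420 CPM in cml24-2 controls, and 1.58 and 1.64 CPM in wild type with Al, against 0.872 and 0.908 CPM in wild-type controls. Neither genotype had overlapping groups, yet the libraries held only 5 to 32 reads of it. With Al the log2 fold change was 1.19 (SE 0.48, 95% interval 0.11 to 2.28, adjusted p = 0.071, edgeR) in cml24-2 and 0.85 (SE 0.51, -0.30 to 2.00, adjusted p = 0.19) in wild type, and neither was called. In cml24-2 it passed the threshold with limma on log2(FPKM + 1) (adjusted p = 0.042) and without cml24-2 control replicate 1 (2.37, edgeR adjusted p = 0.013), while HSP17.4 was at 0.56 without cml24-2 control replicate 2 (edgeR adjusted p = 0.34). HSP17.4 overlaps AT3G46220 and AT3G07365 on the opposite strand.

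HSP18.2 (AT5G59720, on chromosome 5), also of class I, had 2.01 and 0.919 CPM in cml24-2 with Al, against 1.17 and 0.840 CPM in cml24-2 controls, and 1.66 and 1.30 CPM in wild type with Al, against 1.27 and 0.825 CPM in wild-type controls. The cml24-2 groups overlapped and the wild-type groups did not. Its log2 fold change was 0.54 (SE 0.46, 95% interval -0.50 to 1.57, adjusted p = 0.37, edgeR) in cml24-2 and 0.49 (SE 0.45, -0.53 to 1.51, adjusted p = 0.39) in wild type. HSP17.6A (AT5G12030, on chromosome 5), of cytosolic class II, did not pass the count filter and was not tested. It was at 0.670 and 0.501 CPM in cml24-2 with Al, 0.753 and 0.252 CPM in cml24-2 controls, 0.580 and 0 CPM in wild type with Al, and 0.317 and 0.330 CPM in wild-type controls. The library at 0 does not list the gene, which allows up to 0.255 CPM (3 counts, counting error only). Most of these values are a few reads, so no fold is given.

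**Figure D3:**
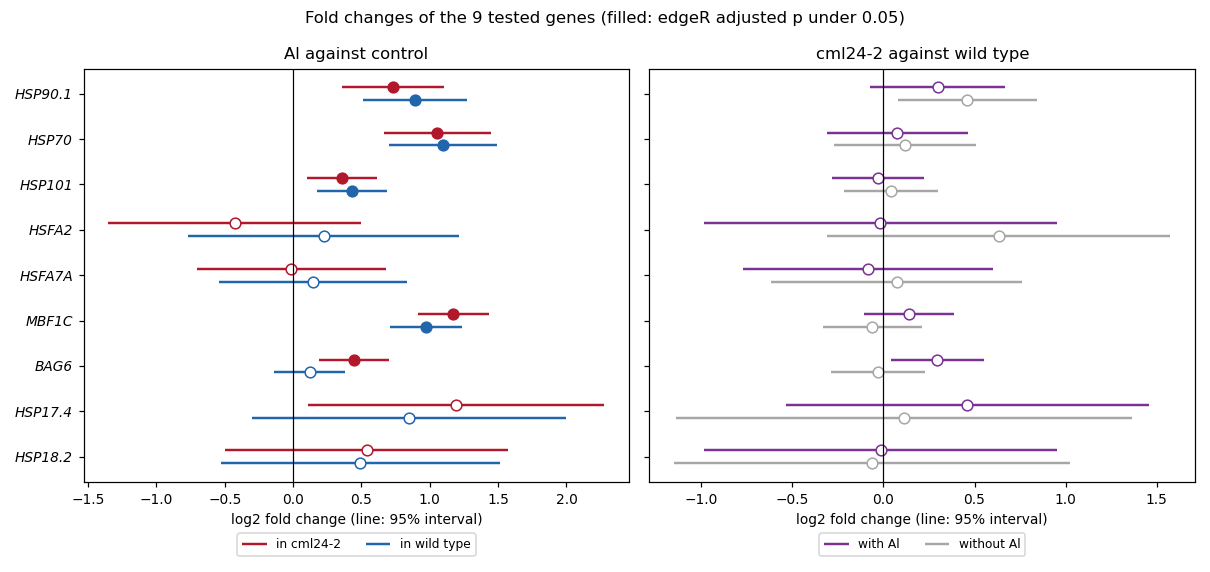
Log2 fold change (x axis) with its 95% interval (line) for the 9 tested genes (rows), for Al against control on the left and for cml24-2 against wild type on the right. Filled points passed an edgeR adjusted p of 0.05: HSP90.1, HSP70, HSP101 and MBF1C in both genotypes and BAG6 in cml24-2 for Al, and none for genotype. The intervals of HSFA2, HSP17.4 and HSP18.2 are the widest.

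No member differed between the genotypes past the threshold of the test. Without Al, 0 of the 9 tested members were called between cml24-2 and wild type (edgeR), where 7.41% of all tested genes were called higher in cml24-2 and 5.5% lower. HSP90.1 was the 1 member with an unadjusted p under 0.05, by edgeR and by DESeq2, and DESeq2 and limma called 0. It had 50.5 and 48.4 CPM in cml24-2 controls, against 29.5 and 42.4 CPM in wild-type controls, a log2 difference of 0.46 (SE 0.17, 95% interval 0.08 to 0.84, adjusted p = 0.11, edgeR). These pairs did not overlap, and the value depended on which wild-type control was used. Without wild-type control replicate 2 it was 0.74 (adjusted p = 0.0093, edgeR), and HSP70 then also passed (0.45, adjusted p = 0.036), whereas without wild-type control replicate 1 HSP90.1 was at 0.17 (adjusted p = 0.48, edgeR) and the member that passed was HSFA7A (0.75, adjusted p = 0.027).

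The intervals say how large a difference between unstressed cml24-2 and wild-type roots the data still allow. For HSP70 the log2 difference was 0.12 (95% interval -0.27 to 0.51), for HSP101 0.04 (-0.22 to 0.30), for MBF1C -0.06 (-0.33 to 0.21) and for BAG6 -0.03 (-0.29 to 0.23). For HSFA7A it was 0.07 (-0.62 to 0.76), for HSFA2 0.63 (-0.31 to 1.58), for HSP17.4 0.11 (-1.14 to 1.37) and for HSP18.2 -0.06 (-1.15 to 1.03). The intervals of the low-count genes HSFA2, HSP17.4 and HSP18.2 therefore reach past 1 on the log2 scale, and those of the other tested members do not.

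With Al, 0 of 9 members were called between cml24-2 and wild type (edgeR), where 4.63% of all tested genes were called higher in cml24-2 and 3.4% lower. BAG6 was the 1 member with an unadjusted p under 0.05 (edgeR), and DESeq2 and limma called 0. It had 30.9 and 28.8 CPM in cml24-2, against 25.9 and 22.8 CPM in wild type, a log2 difference of 0.30 (SE 0.11, 95% interval 0.04 to 0.55, adjusted p = 0.15, edgeR). HSP90.1 likewise had no overlap, at 91.3 and 72.7 CPM in cml24-2 against 65.2 and 68.3 CPM in wild type (0.30, SE 0.16, -0.07 to 0.67, adjusted p = 0.31). For HSP70 the difference was 0.08 (-0.31 to 0.46), for MBF1C 0.14 (-0.11 to 0.39) and for HSP101 -0.03 (-0.28 to 0.22).

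The response to Al in cml24-2 minus that in wild type was called for 0 of 9 members (edgeR), with 0 at an unadjusted p under 0.05 and 0 calls by DESeq2 or limma, where 0.0987% of all tested genes were called higher and 0.202% lower. The difference was -0.04 (95% interval -0.59 to 0.51) for HSP70, -0.16 (-0.69 to 0.37) for HSP90.1, -0.07 (-0.43 to 0.29) for HSP101 and 0.20 (-0.17 to 0.57) for MBF1C. These intervals do not show that the 2 genotypes responded alike. For BAG6, the member with the smallest p, the difference was 0.33, as given above.

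The members that rose with Al followed each other closely over the 8 libraries, which share the step between Al and control and 4 groups of 2, so the coefficients are descriptions. Pearson's r of log2 CPM was 0.98 between HSP70 and HSP101, 0.95 between HSP70 and MBF1C, 0.93 between HSP70 and HSP90.1 and 0.86 between HSP90.1 and MBF1C. HSFA2 stood apart, with r of -0.22 to HSP70 and -0.15 to MBF1C, and so did HSFA7A, with -0.07 to HSP70 and 0.15 to MBF1C. HSFA2 and HSFA7A had r of 0.69 to each other. HSP17.4 had r of 0.70 to HSP70 and to HSP18.2.

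Among all tested genes, the nearest pattern to HSP70 was that of AT4G33040 (r 0.996, n = 8 libraries), followed by EPS1 (0.994) and AT3G02360 (0.992). The nearest to HSP90.1 were AT2G19710 (0.994), ASA1 (0.991) and OBP3 (0.987). HSP101 was nearest to AT4G13110 (0.996), ARSK1 (0.993) and AT5G43730 (0.991), and MBF1C to AT4G26180 (0.998), AT3G20300 (0.997) and SAL2 (0.996). BAG6 was nearest to TBL38 (0.982), AT2G29070 (0.961) and AT4G37295 (0.957). None of the 15 genes named for these 5 members is a heat-shock gene of the lists described below. For HSFA2 the 3 nearest were CKA1 (0.947), AT5G14440 (0.929) and AT4G23900 (0.912), and for HSFA7A AT3G04160 (0.989), AT5G02520 (0.983) and AT1G55000 (0.967). The low-count HSP17.4 was nearest to CKB4 (0.983), to the heat-shock factor AT-HSFB2B (0.978), which like other class B factors lacks the activation domain of class A, and to FLD (0.965). HSP18.2 was nearest to AT3G48344 (0.973), AT2G34530 (0.952) and IAA29 (0.943).

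Over all tested genes, 21.3% were called higher and 23.3% lower with Al in cml24-2, and 25.1% higher and 25.9% lower with Al in wild type (edgeR), and the counts of each list below are read against these shares. Of 17 tested HSP70-family genes, 3 were called higher and 5 lower in cml24-2, and 4 higher and 7 lower in wild type (edgeR), with a median log2 fold change of 0.07 in cml24-2 and -0.12 in wild type. The shares in cml24-2 are near those of all genes. Besides the member HSP70, AT3G09440 rose (0.54, SE 0.13, adjusted p = 0.0077 in cml24-2 and 0.53, SE 0.13, adjusted p = 0.0072 in wild type), and its reads are partly shared with other genes. The mitochondrial chaperone mtHSC70-1 fell to 166 ± 0.528 CPM in cml24-2 with Al, against 314 ± 1.34 CPM in cml24-2 controls (SD, n = 2; log2 fold change -0.92, adjusted p = 1.2e-04, edgeR), and to 139 ± 8.91 CPM in wild type with Al, against 284 ± 27.9 CPM in controls (-1.03, adjusted p = 4.6e-05). The constitutive cytosolic HSC70-1 fell as well (-0.59 in cml24-2 and -0.73 in wild type, adjusted p = 0.0022 and 5.4e-04), with reads partly shared. BIP3, a stress-inducible lumenal HSP70, was called higher in wild type at low counts (0.970 ± 0.270 CPM with Al, against 0.124 ± 0.175 CPM in controls, SD, n = 2; log2 fold change 2.90, adjusted p = 0.013, edgeR), but not in cml24-2 (0.85, adjusted p = 0.30), and its call ended without wild-type control replicate 1 or Al replicate 1. Without wild-type Al replicate 1 or 2 the family's higher calls in wild type numbered 2.

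In the HSP90 and HSP100 families, 3 of 10 genes were called higher and 5 lower with Al in each genotype, and HSP90.1 and HSP101 were 2 of the 3 that rose. The other was CLPB3, the plastid relative of HSP101 (0.32 in cml24-2 and 0.46 in wild type, adjusted p = 0.033 and 0.0056, edgeR). The CLPB3 call in cml24-2 held in 10 of 16 alternatives and ended with DESeq2 (adjusted p = 0.12). With 1 library left out its log2 fold change in cml24-2 was 0.22 to 0.43. HSP90.6 of mitochondria fell by 0.88 in cml24-2 and 1.15 in wild type, HSP90.5 of plastids by 0.79 and 0.73, and HSP90.7 of the endoplasmic reticulum by 0.67 and 1.31 in the same order, each with an adjusted p of at most 8.0e-04 (edgeR). Cytosolic HSP90.2, with reads partly shared, fell by 0.47 and 0.59 in the same order (adjusted p = 0.0085 and 0.0023), and its call in cml24-2 ended without cml24-2 control replicate 1 or Al replicate 2. In cml24-2 the calls numbered 1 higher and 3 lower without cml24-2 control replicate 1. None were higher without cml24-2 Al replicate 1, and 3 were lower without cml24-2 Al replicate 2.

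Of the 21 heat-shock factors, 19 were tested, and 8 were called higher with Al in either genotype, with 3 lower in cml24-2 and 2 lower in wild type (edgeR), although HSFA2 and HSFA7A were not among them. The shares called over all genes were 21.3% higher and 23.3% lower in cml24-2, and 25.1% higher and 25.9% lower in wild type. HSFA1E, a class A1 factor of the group that starts the heat response, was at 31.6 ± 0.945 CPM in cml24-2 with Al, against 10.9 ± 0.923 CPM in cml24-2 controls, and at 34.7 ± 2.05 CPM in wild type with Al, against 6.08 ± 1.71 CPM in wild-type controls (SD, n = 2). Its log2 fold change was 1.53 (SE 0.16, adjusted p = 9.3e-05, edgeR) in cml24-2 and 2.51 (SE 0.17, adjusted p = 5.8e-06) in wild type. HSFA3, known to act downstream of DREB2A, rose by 0.81 in cml24-2 and 1.92 in wild type (adjusted p = 0.0057 and 9.4e-05). HSFA8 rose by 0.79 and 1.34 in the same order (adjusted p = 0.0089 and 6.1e-04), and HSFB3 by 1.67 and 1.06 (0.0020 and 0.012). HSFA6B was called higher in wild type (1.54, adjusted p = 0.014, edgeR) but not in cml24-2 (0.73, adjusted p = 0.18), and the wild-type call ended without wild-type Al replicate 1. HSFB4, known for its role in root stem-cell divisions, fell by 1.42 in cml24-2 and 0.95 in wild type (adjusted p = 2.2e-05 and 1.5e-04, edgeR). Without cml24-2 control replicate 2 or Al replicate 1, 4 factors were called higher in cml24-2. The lower calls numbered 1 in cml24-2 without cml24-2 control replicate 1 or either Al replicate, and 1 in wild type without wild-type control replicate 2 or Al replicate 2.

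Around the other regulators, 4 of the 10 MBF1 and BAG genes were called higher in cml24-2 and 5 in wild type, with 0 lower (edgeR; 0 lower also at an unadjusted p under 0.05 and by DESeq2 and limma). BAG2 had the largest step, at 13.1 ± 0.0946 CPM in cml24-2 with Al, against 1.84 ± 0.233 CPM in cml24-2 controls, and 16.9 ± 2.00 CPM in wild type with Al, against 3.68 ± 0.296 CPM in wild-type controls (SD, n = 2). Its log2 fold change was 2.82 (SE 0.19, adjusted p = 8.4e-06, edgeR) in cml24-2 and 2.20 (SE 0.17, adjusted p = 9.9e-06) in wild type. In cml24-2 the higher calls numbered 2 without control replicate 1 or Al replicate 1, and in wild type 3 without Al replicate 1.

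Among 13 tested co-chaperones and heat-response genes, 5 were called higher and 4 lower in cml24-2, and 4 higher and 4 lower in wild type (edgeR). HOP3, which links HSP70 to HSP90, was at 78.8 ± 11.5 CPM in cml24-2 with Al, against 43.6 ± 1.73 CPM in cml24-2 controls, and 67.8 ± 1.94 CPM in wild type with Al, against 39.8 ± 6.57 CPM in wild-type controls (SD, n = 2; log2 fold change 0.85 and 0.77, adjusted p = 9.7e-04 and 0.0014). HSA32, a heat-induced protein of long-term thermotolerance, was called higher in cml24-2 (0.91, adjusted p = 0.011, edgeR) but not in wild type (0.53, adjusted p = 0.066). The FKBP-type co-chaperone ROF2 fell by 0.47 in cml24-2 and 0.69 in wild type (adjusted p = 0.026 and 0.0035), and its call in cml24-2 ended with DESeq2 and without either cml24-2 control or cml24-2 Al replicate 2. The HSA32 call ended without cml24-2 control replicate 1. In cml24-2 the counts were 1 higher and 0 lower without control replicate 1, 2 lower without control replicate 2, 3 higher and 1 lower without Al replicate 1, and 3 higher and 0 lower without Al replicate 2. In wild type, 2 were lower without either Al replicate.

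Of the 10 chaperones and related genes of the endoplasmic reticulum, 1 was called higher and 4 lower in cml24-2, and 2 higher and 7 lower in wild type (edgeR), where 23.3% of all tested genes were called lower in cml24-2 and 25.9% in wild type. Their median log2 fold change was -0.28 in cml24-2 and -0.82 in wild type. BIP2, the lumenal HSP70, fell by 0.74 in cml24-2 and 1.52 in wild type (adjusted p = 0.0028 and 3.8e-05), with reads shared with its near copy BIP1. The membrane lectin chaperone CNX1 fell by 0.90 and 1.40 in the same order (adjusted p = 7.9e-04 and 5.0e-05). BZIP60, the factor that drives the unfolded-protein response, rose by 1.04 in cml24-2 and 1.76 in wild type (adjusted p = 1.2e-04 and 5.1e-06, edgeR). In wild type 1 gene was called higher without wild-type control replicate 1 or Al replicate 1.

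Of the 16 small heat-shock proteins, 11 were tested, with 1 called higher and 2 lower in cml24-2, and 1 higher and 1 lower in wild type (edgeR). AT4G21870, of the HSP20-like superfamily, fell to 1.97 ± 0.292 CPM in cml24-2 with Al, against 6.70 ± 0.340 CPM in cml24-2 controls, and to 0.593 ± 0.0181 CPM in wild type with Al, against 3.87 ± 1.03 CPM in wild-type controls (SD, n = 2; log2 fold change -1.76 and -2.69, adjusted p = 5.5e-04 and 1.8e-04). The genes called higher, AT1G53540 in cml24-2 and AT2G29500 in wild type, lost their call in several alternatives. In wild type the higher count was 0 without wild-type control replicate 1, either wild-type Al replicate or either cml24-2 control. In cml24-2 it was 0 without cml24-2 control replicate 2 or Al replicate 1 and 2 without Al replicate 2 or wild-type control replicate 1, and the lower count was 1 without any 1 of the 4 cml24-2 libraries.

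**Figure D4:**
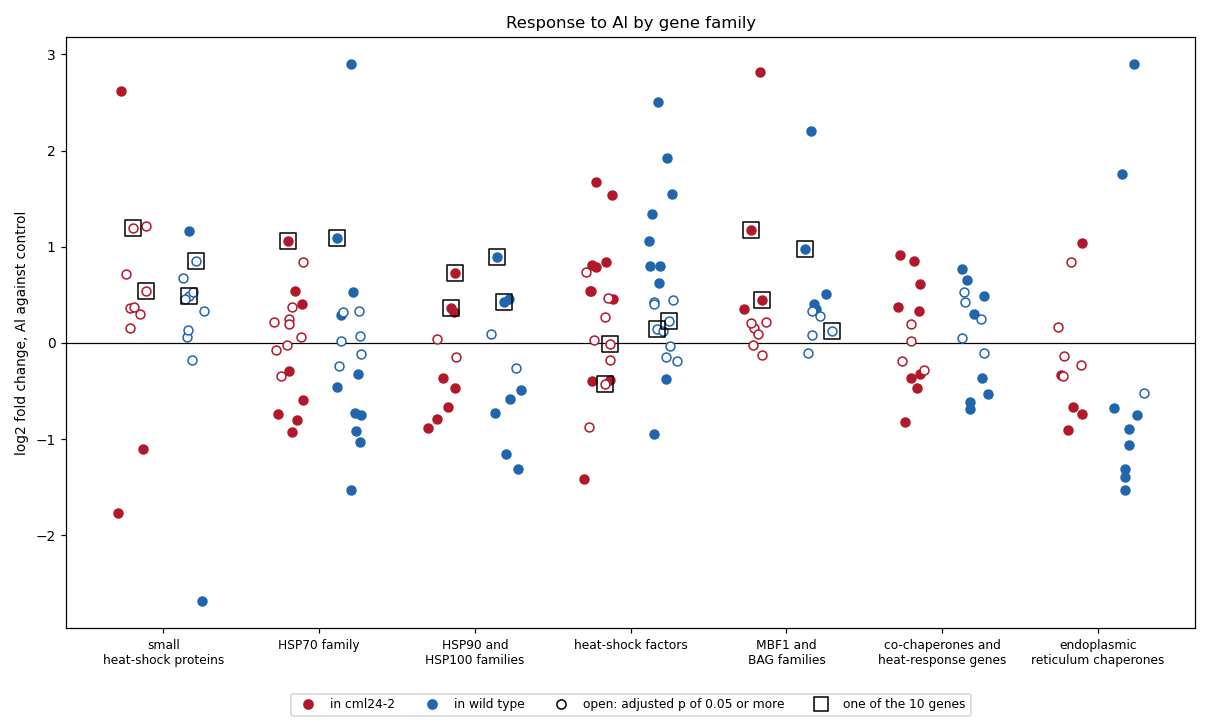
Log2 fold change with Al (y axis) of every tested gene of 7 lists (x axis), cml24-2 on the left of each pair and wild type on the right. Filled points passed an edgeR adjusted p of 0.05 and squares mark the members. HSP90.1, HSP70 and MBF1C lie near the top of their families. HSFA2 (-0.43 in cml24-2 and 0.22 in wild type) and HSFA7A (-0.01 and 0.15) lie below the median of the tested heat-shock factors (0.46 and 0.43). Genes in 2 lists appear in each.

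Between genotypes without Al, the heat-shock factors had the most genes called higher in cml24-2 of the 7 lists, 5 of 19 against 7.41% of all tested genes (edgeR), although none of them is a member. HSFA3 was at 11.2 ± 1.04 CPM in cml24-2 controls, against 3.41 ± 1.13 CPM in wild-type controls (SD, n = 2; log2 difference 1.72, SE 0.22, adjusted p = 0.0023, edgeR), and HSFA4A at 32.4 ± 8.99 CPM, against 15.4 ± 2.61 CPM (1.07, SE 0.19, adjusted p = 0.0091). Without cml24-2 control replicate 1 the count was 3, and 2 with only the 4 libraries compared. With Al, 1 factor was called between genotypes, HSFA4A (0.73, SE 0.18, adjusted p = 0.043, edgeR). That call ended without any 1 of the 4 Al libraries, and the count was 3 without wild-type control replicate 1 and 2 without wild-type control replicate 2. The HSP70-family gene HSP70-2, with partly shared reads, was at 87.1 ± 5.84 CPM in cml24-2 with Al, against 47.7 ± 2.54 CPM in wild type with Al (0.87, SE 0.14, adjusted p = 0.0083), a call that ended without cml24-2 Al replicate 1 or either wild-type Al replicate.

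Without Al, the endoplasmic reticulum chaperones had 1 gene called higher and 4 of 10 lower in cml24-2 (5.5% of all tested genes were lower), with PDIL1-1, a protein disulfide isomerase, at 389 ± 19.9 CPM in cml24-2 controls, against 610 ± 62.4 CPM in wild-type controls (SD, n = 2; log2 difference -0.65, SE 0.10, adjusted p = 0.0056, edgeR). The 4 lower calls became 8 without wild-type control replicate 1, 1 without cml24-2 control replicate 2, 0 without cml24-2 control replicate 1 and 2 without any other single library, and the higher call ended without wild-type control replicate 1, either wild-type Al replicate or cml24-2 control replicate 1. The other 5 lists had at most 2 genes called in either direction, except that 3 HSP70-family genes were called lower without wild-type control replicate 1. In the HSP70 family, 0 were called higher and 1 lower, against 2 higher and 0 lower without wild-type control replicate 2 and 0 lower without any 1 of the Al or cml24-2 control libraries.

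The response to Al in cml24-2 minus that in wild type was called for 0 genes of the 7 lists (edgeR). Of all tested genes, 0.0987% were called higher and 0.202% lower. For HSFA1E it was -0.97 (SE 0.23, adjusted p = 0.14), for HSFA3 -1.11 (SE 0.28, adjusted p = 0.16), for BIP2 0.78 (SE 0.20, adjusted p = 0.16) and for BZIP60 -0.71 (SE 0.16, adjusted p = 0.12). At an unadjusted p under 0.05 (edgeR), 7 of the 10 endoplasmic reticulum chaperones were higher and 1 lower. In other lists, 3 HSP70-family genes and 1 HSP90 or HSP100 gene were higher, and 3 heat-shock factors and 1 co-chaperone gene were lower. The MBF1 and BAG list had 1 gene on each side. The share of all tested genes at this unadjusted threshold was not counted. BIP1, BIP2 and BIP3 are also in the HSP70 list, and HSP90.7 is also in the HSP90 and HSP100 list. The counts in this paragraph can therefore hold the same gene in more than 1 list. DESeq2 called 3 endoplasmic reticulum chaperones, 1 HSP70-family gene and 1 HSP90 or HSP100 gene higher. It called 199 of all 20262 tested genes in either direction. Without wild-type control replicate 1, edgeR called 5, 3 and 1 higher in the same lists and 1 heat-shock factor lower, and without wild-type control replicate 2 it called 2 heat-shock factors lower.

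The 3-unit heat-shock element letters were also set against the response of all genes that carry them. Of 277 tested genes with these letters, 84 (30.3%) were called higher and 47 (17.0%) lower with Al in cml24-2, and 82 (29.6%) were called higher and 54 (19.5%) lower with Al in wild type. Over all tested genes 21.3% were called higher and 23.3% lower in cml24-2, and 25.1% and 25.9% in wild type. The median log2 fold change of the genes with the letters was 0.10 in cml24-2 and 0.08 in wild type. No test was made of these shares, and the 6 members shown above are among the genes counted.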

How the data were processed

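Per the submitters' processing notes the authors used RSEM; its version, the aligner, genome build and strand setting are not stated there or in the labels. The deposited expected counts are estimated reads per gene (89.1 to 89.5% whole within 0.005), and the deposited FPKM are scaled by the authors to gene length and library. Genes under an FPKM of 0.01 are not listed and were taken as 0. Listed lengths of 12101 of 12101 single-transcript genes equalled those of RefSeq TAIR10.1, and 24086 of 24279 identifiers matched its names.

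Expected counts were rounded and tested with edgeR 4.0.16 in R 4.3.3 (quasi-likelihood F test, TMM, filterByExpr, 4 group means over 8 libraries, 4 residual degrees of freedom). A gene was called at a Benjamini-Hochberg adjusted p below 0.05, adjusted over 20262 genes. SE come from the F statistic, intervals are 95%, and CPM use the normalized total, of which 3 counts are 0.246 to 0.255 CPM per library before normalization. Alternatives were DESeq2 1.42.0, RLE size factors, no filter, a strict filter (1 CPM in 4 libraries), only the libraries compared, the replicate block, limma 3.58.1 on log2(FPKM + 1) and log2(FPKM + 0.1), and each library left out. The procedure was also run on simulated counts, which used the spread of each gene estimated from these data, the same in all groups. That run does not cover a spread that differs between the pairs of libraries. The members, the 7 heat and chaperone lists, the marker lists and the tests were chosen with earlier results of these data known. The text names all members and the 3 nearest patterns per member. It also names examples from each list, taken from the up to 4 genes per direction and comparison with the largest change among those called. A gene given with its change with Al in 1 genotype has its value in the other beside it.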

Additional observations from a re-analysis of the deposited data

How the results depend on the processing

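Every call of HSP70 and MBF1C with Al, and that of HSP90.1 in wild type, kept its direction and passed the threshold in all 16 alternatives. With DESeq2 the members called higher with Al in cml24-2 numbered 3 instead of 5, and with each library left out in turn they numbered 2 to 5; in wild type they numbered 3 to 4, and those higher in cml24-2 without Al 0 to 2. Of 710 member values under alternatives, 47 changed sign, 0 of them called values. The log2 change of HSFA7A with Al in cml24-2 was 0.0019 with DESeq2 and with RLE size factors, 0.011 with limma on log2(FPKM + 1) and 0.012 on log2(FPKM + 0.1). In the same order of pseudocounts, limma gave -0.011 and -0.013 for HSP101 and -0.039 and -0.17 for HSP17.4 between genotypes without Al, and 0.0050 and 0.0054 for the HSP101 interaction. The cause was not tested.

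With 1 library left out, the ranges that crossed 0 were, for Al in cml24-2, -0.78 to 0.044 for HSFA2, -0.063 to 0.039 for HSFA7A and -0.13 to 0.99 for HSP18.2, and for Al in wild type -0.13 to 0.69 for HSFA2 and -0.33 to 0.84 for HSFA7A. Between genotypes without Al they were -0.20 to 0.45 for HSP70, -0.10 to 0.14 for HSP101, -0.40 to 0.75 for HSFA7A, -0.15 to 0.020 for MBF1C, -0.12 to 0.035 for BAG6, -1.07 to 0.75 for HSP17.4 and -0.33 to 0.24 for HSP18.2. With Al they were -0.11 to 0.042 for HSP101, -0.17 to 0.12 for HSFA2, -0.25 to 0.10 for HSFA7A and -0.68 to 0.44 for HSP18.2. For the interaction they were -0.45 to 0.13 for HSP90.1, -0.37 to 0.28 for HSP70, -0.17 to 0.071 for HSP101, -0.83 to 0.32 for HSFA7A, -0.29 to 1.52 for HSP17.4 and -0.62 to 0.50 for HSP18.2.

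Counts over all genes moved most between genotypes. Without Al 2616 genes were called, 888 with only the 4 libraries compared and 807 to 3057 with 1 library left out. With Al 1626 were called, 3340 with only those compared and 148 to 2788. For the interaction 61 were called, 199 with DESeq2 and 12 to 479. List counts for Al also moved by over 1.5 times in these alternatives. In cml24-2, DESeq2 called 1 HSP90 or HSP100 gene higher, 1 heat-shock factor and 1 co-chaperone lower, and 0 small heat-shock proteins higher and 1 lower; limma called 2 co-chaperones lower; the small heat-shock proteins higher were 0 with the strict filter and 2 with the replicate block or limma on log2(FPKM + 1). In wild type, DESeq2 called 1 heat-shock factor lower, limma and the fit of only the libraries compared called 2 HSP70-family genes and 1 endoplasmic reticulum gene higher, the strict filter also 1 such gene, and DESeq2, limma and no filter 0 small heat-shock proteins higher. Between genotypes, the fit of only the libraries compared called 0 endoplasmic reticulum genes without Al and 4 heat-shock factors with Al, and the replicate block and limma 0 heat-shock factors with Al. Whether libraries with the same replicate number share a culture or batch is not given. Their deviations correlated between -0.1675 and 0.1444 over the 6 pairs of groups, which does not settle it. With the replicate block the counts were 8989 for Al in cml24-2, 10319 for Al in wild type, 2531 and 1406 between genotypes without and with Al, and 57 for the interaction, and no member's call changed. A crossed block between the controls, chosen after seeing the data, gave 2764. Counts of 5 to 32 reads per library limit HSFA2, HSP17.4 and HSP18.2.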
